A study of Rattus norvegicus with 18 samples.

Results

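Matrix glycoproteins, proteoglycans and the proteases that cut them, with the inhibitors of those proteases, were followed in the rat adrenal gland. The set was a list of 57 gene symbols with the collagens left out, and its rows were those of the scanner files that carried one of these symbols, with the brightest probe taken for each gene. Of the 57 genes, 54 had a row, among 26583 gene names on the array. Lama2, Hspg2 and Cyr61 had no row under those names and are not analysed here. Lama4 and Thbs1 were not well above background on enough arrays to be tested, so 52 of the 57 genes were tested, among 20846 genes in all. By role these were 14 of 14 elastic fibre and microfibril genes, 8 of 11 basement membrane genes, 8 of 8 proteoglycans, 12 of 14 adhesive and matricellular glycoproteins and 10 of 10 proteases and inhibitors.

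Adrenal glands came from stroke-prone spontaneously hypertensive rats (SHRSP), spontaneously hypertensive rats (SHR) and normotensive Wistar Kyoto rats (WKY), each strain at 6 and at 3 weeks of age. None had been treated, and each of the 6 groups had 3 arrays that the labels call biological replicates. Both hypertensive strains descend from Wistar Kyoto stock, and SHRSP was bred from SHR. The sex of the rats, and whether a gland was pooled with others, are not given in the sources used here. Total RNA of the whole gland was labelled with Cy3 from an oligo-dT primer, and 1 array was hybridised per sample. All levels below are log2 levels, the log2 of the processed signal minus that of the array's 75th percentile, so that 0 is the 75th percentile of its array. All differences are log2 differences with their standard error, and "rose", "fell", "higher" and "lower" as findings mean an adjusted p under 0.05 in a limma fit to all 20846 genes. In whole-gland RNA, fewer cells of a type and less RNA per cell cannot be told apart.

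The extracellular matrix of the adrenal holds an outer capsule, the sheaths of vessels and a basement membrane around the cords of steroid-making and chromaffin cells. Elastic fibres form when tropoelastin is laid on fibrillin microfibrils with the help of fibulins and microfibril-associated proteins. Basement membranes are sheets of laminin trimers tied to collagen IV by nidogens. Small leucine-rich proteoglycans bind collagen fibrils and growth factors, matricellular proteins change how cells bind matrix without building it, and metalloproteases (MMP, ADAMTS) cut matrix proteins under the hold of tissue inhibitors (TIMP).

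Upstream sequences are shown for the secreted phosphoprotein Spp1 (osteopontin), the laminin-binding nidogen Nid1, and Ctgf, the connective tissue growth factor that RefSeq lists as Ccn2. They are shown because the differences between strains in their changes with age were the largest of those called. They were chosen after their values were seen. Each is the 250 bases before the RefSeq start in build GRCr8, read along the gene from 5′ to 3′, with matches to the searched motifs in capitals. The searched motifs were GGAATG, bound by TEAD factors, TGANTCA, bound by AP-1, and TATAAA, the TATA box, on both strands. Spp1 lies at chr14:5619805-5620054, minus strand, Nid1 at chr17:93069036-93069285, plus strand and Ctgf at chr1:22624615-22624864, minus strand.
Spp1: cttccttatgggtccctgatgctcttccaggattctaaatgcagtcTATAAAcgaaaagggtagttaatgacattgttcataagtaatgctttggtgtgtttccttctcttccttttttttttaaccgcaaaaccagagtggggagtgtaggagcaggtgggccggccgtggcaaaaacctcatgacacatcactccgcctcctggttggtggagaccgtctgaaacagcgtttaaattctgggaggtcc
Nid1: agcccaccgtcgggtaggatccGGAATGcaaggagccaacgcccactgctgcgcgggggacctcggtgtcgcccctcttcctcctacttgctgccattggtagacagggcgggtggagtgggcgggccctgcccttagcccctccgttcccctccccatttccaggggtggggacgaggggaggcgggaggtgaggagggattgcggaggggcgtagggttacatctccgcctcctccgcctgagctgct
Ctgf: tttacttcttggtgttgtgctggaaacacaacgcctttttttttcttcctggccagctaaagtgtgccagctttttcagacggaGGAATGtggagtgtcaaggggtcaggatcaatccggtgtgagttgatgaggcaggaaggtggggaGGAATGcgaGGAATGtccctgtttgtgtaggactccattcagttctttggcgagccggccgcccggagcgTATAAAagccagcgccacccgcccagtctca
The capitals mark 3 matches to the TEAD motif in the Ctgf window, which begin 166, 101 and 92 bases before the start, and a TATA box that begins 31 bases before it. Nid1 held 1 TEAD match, 228 bases before its start, and Spp1 a TATAAA match 204 bases before its start, and no match overlapped another. Of 33469 rat promoters of the same length, 12.1% held a TEAD match, 6.34% an AP-1 match and 12.9% a TATAAA match, and 0.0807% held 3 or more TEAD matches. Among the 37 members with a promoter in the table, 9 held a TEAD match, 2 an AP-1 match and 8 a TATAAA match, and Ctgf was the only one with 3 or more TEAD matches. These matches are descriptions of the letters and not of binding.

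The 18 arrays had 77.8% to 84.8% of their probes well above background and a 75th percentile of 2092 to 2602 intensity units, and arrays of 1 group correlated at 0.9872 or above. All 7 adrenal cortex and all 7 chromaffin markers were well above background on all 18 arrays. The arrays lay on 5 slides, each holding 2 to 4 of them. The main fit held the group means without slide, and slide was a block in alternative fits only. The consensus correlation within slide was 0.364. Liver genes stood apart on 3 arrays of 3-week rats. In replicates 1, 2 and 3 Alb had levels of -2.32, 0.83 and -1.77 in SHRSP and -3.09, 5.47 and 0.50 in SHR, and Ttr of -5.25, -0.40 and -5.98 in SHRSP and -6.57, 5.04 and -0.37 in SHR. Replicate 2 of SHR was the highest, and replicate 3 of SHR and replicate 2 of SHRSP were high to a lesser degree. Chromaffin markers were higher than in WKY in 6 of 7 cases in SHRSP and 7 of 7 in SHR at 6 weeks, and in 7 of 7 in SHRSP and 3 of 7 in SHR at 3 weeks. Adrenal cortex markers were higher than in WKY in 4 of 7 cases in SHRSP and in SHR at 6 weeks, and in 4 of 7 in SHRSP and 2 of 7 in SHR at 3 weeks. These shifts in cell markers accompany the strain comparisons below, and their part in them was not tested.

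Age moved more of the matrix genes than strain did, in counts of genes called. Between 6 and 3 weeks, 31 of the 52 fell and 5 rose in SHRSP, where 18.4% of all genes fell and 10.5% rose. In SHR 32 fell and 5 rose, against 14.1% and 15.1% of all genes, and in WKY 18 fell and 2 rose, against 7.16% and 5.16%. Under quantile normalization, which moves the split of all genes in SHRSP, 28 members fell and 5 rose there. The WKY count of 20 was 9, 12 and 13 without WKY 3-week replicate 1, WKY 3-week replicate 3 and WKY 6-week replicate 3. The median age difference of the 52 genes was -0.66 in SHRSP, -0.63 in SHR and -0.43 in WKY, beside -0.09, 0.08 and 0.02 over all genes tested. With slide as a block, 26, 27 and 16 members fell and 6, 5 and 2 rose in SHRSP, SHR and WKY. In all 3 strains the same 15 members fell in the main fit (Eln, Fbn1, Fbn2, Mfap2, Mfap4, Mfap5, Lamb2, Lamc1, Lum, Bgn, Aspn, Thbs2, Mgp, Ctgf and Mmp9), and 2 rose, Spp1 and Mmp3. With slide as a block Mfap5, Lamc1, Lum, Bgn, Aspn, Mgp and Ctgf each lost the call in at least 1 strain, as given below. The falls of Lamc1 in SHRSP and WKY were not seen on its other probe. Over all genes, 2.62% fell and 2.11% rose in all 3 strains. Of the 52 members, 6 were called in no age comparison, and 36 had a negative age difference in all 3 strains.

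**Figure D1:**
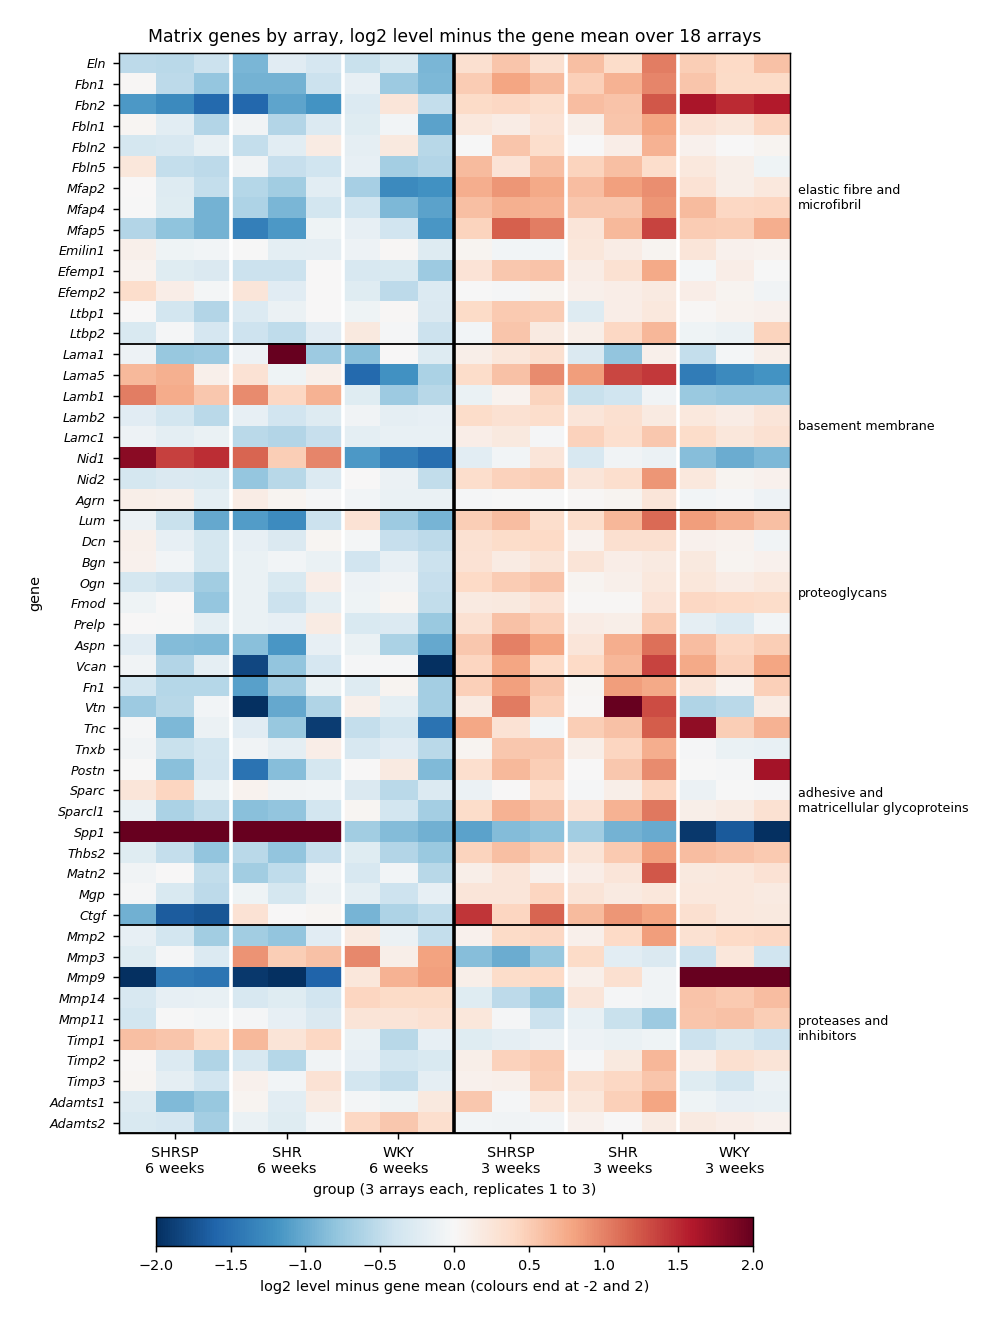
Heat map of the 52 tested matrix genes (rows, by role) on the 18 arrays (columns, by group), coloured by log2 level minus the gene's mean over all arrays, from -2 (blue) to 2 (red). Most rows are blue on the 6-week arrays and red on the 3-week arrays, while Spp1, Nid1 and Lamb1 run the other way in SHRSP and SHR.

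On the single arrays, the median of the 52 genes' centred levels lay at -0.41 to -0.07 in SHRSP, -0.37 to -0.15 in SHR and -0.52 to -0.17 in WKY at 6 weeks. At 3 weeks it lay at 0.25 to 0.40 in SHRSP, 0.15 to 0.66 in SHR and 0.13 to 0.20 in WKY. All 9 arrays of 6-week rats were thus below all 9 of 3-week rats. Of 9 fibroblast and capsule markers, 3 fell with age in SHRSP, 4 in SHR and 4 in WKY, and none rose. The summed signal of those markers, in multiples of the array's 75th percentile, was 2.66 to 2.85 at 6 weeks against 3.06 to 3.4 at 3 weeks in SHRSP, 2.23 to 2.8 against 2.85 to 3.31 in SHR, and 2.16 to 3.04 against 2.78 to 3.05 in WKY. Of 7 smooth muscle and pericyte markers, 0 fell in SHRSP, 4 in SHR and 1 in WKY, and none rose. Their sum was 2.58 to 4.19 at 6 weeks against 3.94 to 4.38 at 3 weeks in SHRSP, 2.71 to 3.52 against 3.87 to 4.46 in SHR, and 2.59 to 3.34 against 4.04 to 4.37 in WKY. Of 6 fat markers tested, 2 fell in SHRSP, 4 in SHR and 0 in WKY. Their sum was 41.5 to 60.9 at 6 weeks against 51.5 to 98.1 at 3 weeks in SHRSP, 32.2 to 43.6 against 61.3 to 128 in SHR, and 43.5 to 99.8 against 34.8 to 74.4 in WKY. In SHRSP Adipoq, Ucp1 and Fabp4 were lower on every 6-week array than on any 3-week array. Cidea, the largest part of the 6-week sum there, went the other way by its lowest level, 4.90 at 6 weeks against 4.46 at 3 weeks. Of 3 red blood cell markers tested, 3 fell in SHRSP, 3 in SHR and 1 in WKY. Their sum was 46.5 to 62.4 at 6 weeks against 66.9 to 78.4 at 3 weeks in SHRSP, 50.9 to 53.6 against 67 to 73.5 in SHR, and 60.1 to 73 against 72.6 to 81.9 in WKY. Of 7 adrenal cortex markers, 3 fell and 1 rose in SHRSP, 1 and 1 did in SHR, and 3 and 1 in WKY. Of 7 endothelium markers, 3 fell in SHRSP, 1 in SHR and 1 in WKY, and none rose. Of 7 chromaffin markers, 1 fell in SHRSP, 0 in SHR and 2 in WKY, and none rose. Of 6 Schwann and neurite markers, 0 fell in SHRSP, 2 in SHR and 2 in WKY, and 2 rose in SHR. These counts stand beside the 18.4%, 14.1% and 7.16% of all genes that fell in SHRSP, SHR and WKY. The markers tested in the fibroblast, smooth muscle, fat and red blood cell lists were well above background on all 18 arrays, except Cnn1 and Lep, on 12 each. The part of all these markers in the matrix result was not tested.

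**Figure D2:**
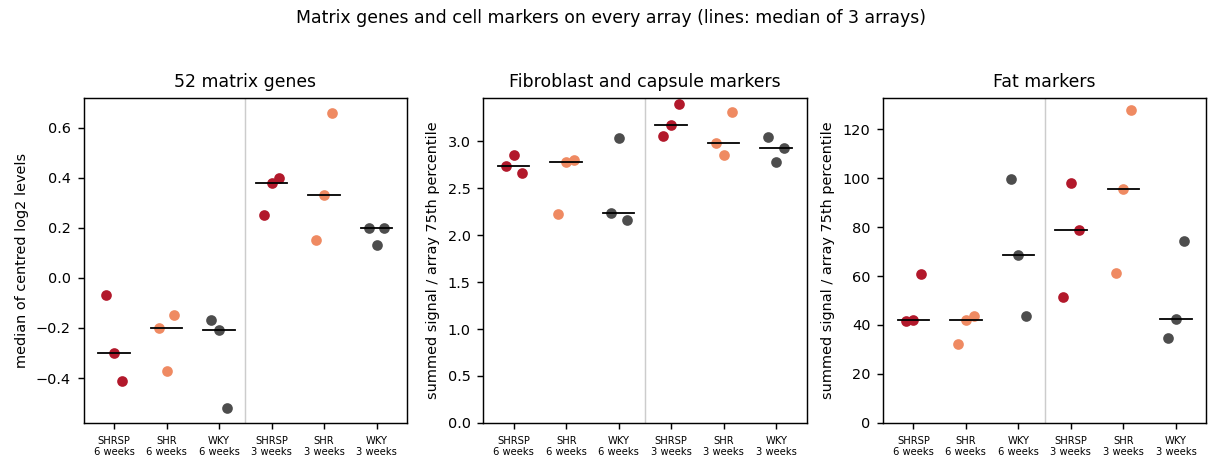
Per-array values in the 6 groups of 3 arrays (points, with the median of each group as a line): the median centred log2 level of the 52 matrix genes, and the summed signal of 9 fibroblast and capsule markers and of 6 fat markers in multiples of the array's 75th percentile. The matrix medians of all 9 arrays at 6 weeks lie below those at 3 weeks, and the fibroblast sums are lower at 6 weeks with 1 WKY array among the 3-week values. The fat sums, in SHRSP at 6 weeks mostly from Cidea, overlap between ages in SHRSP and in WKY.

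Counted over all roles, SHRSP had 8 of 52 members higher and 7 lower than WKY at 6 weeks, where 11.1% and 12.8% of all genes were, and 9 and 5 at 3 weeks, beside 14.8% and 11.4%. SHR had 9 higher and 5 lower at 6 weeks, beside 16.2% and 13%, and 7 and 4 at 3 weeks, beside 9.01% and 9.2%. SHRSP over SHR gave 2 higher and 3 lower at 6 weeks, beside 6.74% and 8.21%, and 0 and 3 at 3 weeks, beside 4.73% and 3.2%. In each single comparison the member counts against WKY are thus close to the share of all genes that differ. In all 4 comparisons, 4 of the 52 members (Mfap2, Lama5, Nid1 and Spp1) were higher and 3 (Fbn2, Mmp9 and Mmp14) lower. Over all genes 3.07% and 2.83% were, which are smaller shares than those of the members. The member counts are of few genes, and Mfap2 and Fbn2 had calls among the 4 that ended with 1 array left out, as given below. Without SHR 3-week replicate 2, 7 rather than 11 members differed between SHR and WKY at 3 weeks. Without WKY 3-week replicate 2, or without SHRSP 3-week replicate 3, 9 rather than 14 differed between SHRSP and WKY at that age. The 3 of SHRSP over SHR at 3 weeks became 1 without SHRSP 3-week replicate 3, and the 5 at 6 weeks became 3 without SHR 6-week replicate 1, SHR 6-week replicate 3 or SHRSP 6-week replicate 3. Over all genes SHRSP over SHR at 6 weeks had a median of -0.11, and under quantile normalization, where that median was -0.02, 3 members were higher and 2 lower. The median of the members was 0.0 in SHRSP and -0.01 in SHR over WKY at 6 weeks, and 0.17 and 0.17 at 3 weeks, beside medians of -0.01, 0.09, 0.09 and -0.01 over all genes. With slide as a block the members higher and lower were 8 and 7 in SHRSP and 10 and 5 in SHR at 6 weeks, and 10 and 4 in SHRSP and 10 and 4 in SHR at 3 weeks. The 2 hypertensive strains share their WKY arrays in these comparisons.

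**Figure D3:**
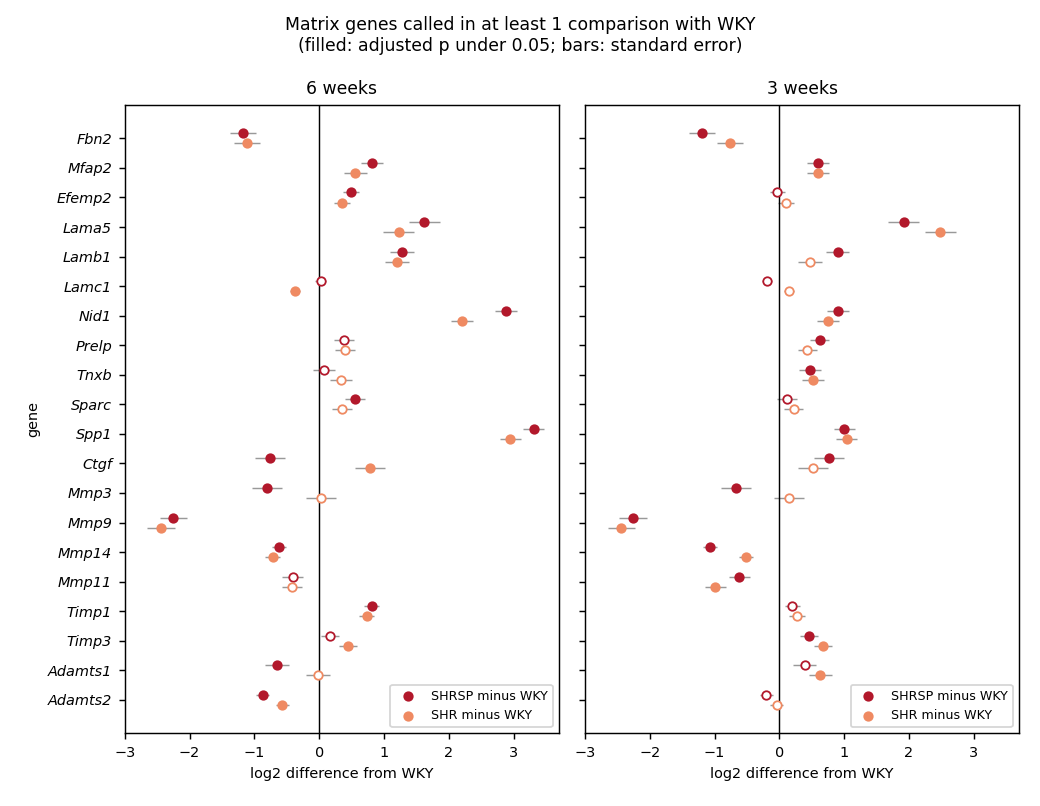
Log2 difference from WKY at 6 weeks (left) and 3 weeks (right) for the 20 matrix genes called in at least 1 of the 4 comparisons, in SHRSP (dark red) and SHR (orange), with standard errors as bars and filled points where the adjusted p is under 0.05. Spp1 and Nid1 lie farther to the right at 6 weeks, Lama5 farther at 3 weeks, and Mmp9 far to the left at both ages. The Mmp9 points at 6 weeks rest on SHRSP and SHR signals that were not well above background.

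Age changes differed between strains for few members. SHRSP minus WKY gave 3 above and 3 below, beside 3.71% and 6.35% of all genes. SHR minus WKY gave 2 and 3, beside 3.41% and 2.4%, and SHRSP minus SHR gave 2 and 2, beside 4.43% and 7.47%. The SHR minus WKY count of 5 was 3 without any 1 of 9 arrays. Over all genes the median of SHRSP minus SHR was -0.17, and under quantile normalization, which moved the split of all genes, the members' counts were again 3 and 3 for SHRSP minus WKY and 2 and 2 for SHRSP minus SHR. These genes were Nid1, Spp1, Ctgf, Timp1, Adamts1, Adamts2, Lama5, Lamc1, Ogn and Mmp14. In all 12 comparisons together 170 member differences were called. With slide as a block 147 of these calls were kept and none changed sign. Each of the 155 between 2 groups had the same sign within every slide that held both groups. Where the arrays of 2 groups do not overlap that sign is fixed in advance, so this agreement is not a check on slide. Of the 170, 107 were called with each array left out in turn, and 63 were not, as given below beside the calls described.

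Genes of the elastic fibre fell with age in every strain. Of the 14, 9 fell in SHRSP, 11 in SHR and 7 in WKY, and none rose, beside 18.4%, 14.1% and 7.16% of all genes that fell. Fbn2, the fibrillin that dominates microfibrils of developing tissue, had levels of -2.70, -2.83 and -3.10 in SHRSP at 6 weeks against -1.16, -1.14 and -1.19 at 3 weeks. SHR had -3.12, -2.60 and -2.75 at 6 weeks against -0.93, -0.98 and -0.30 at 3 weeks, and WKY had -1.82, -1.30 and -2.02 against 0.09, -0.06 and 0.03. All 6-week arrays were below all 3-week arrays of their strain, and WKY was the highest strain at each age with no overlap. The age difference of Fbn2 was -1.72 ± 0.20 in SHRSP, -2.09 ± 0.20 in SHR and -1.74 ± 0.20 in WKY (adjusted p = 2.75e-05, 7.42e-06 and 9.54e-05), a fall of 3.28, 4.25 and 3.33 times. Against WKY it was lower in SHRSP, with differences of -1.17 ± 0.20 at 6 weeks and -1.19 ± 0.20 at 3 weeks (adjusted p = 0.000703 and 0.000609) and in SHR, with differences of -1.11 ± 0.20 and -0.76 ± 0.20 (adjusted p = 0.000945 and 0.0167). At 3 weeks in SHR that was a call lost without WKY 3-week replicate 1 or SHR 3-week replicates 1 or 2 alone (adjusted p up to 0.0797, without SHR 3-week replicate 2, with a difference of -0.64). In SHRSP against WKY the difference was -1.17 with slide as a block (adjusted p = 0.00519) and -1.80 within the 1 slide that held both groups at 6 weeks.

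Elastin itself (Eln), the core of the fibre, stood at -6.26, -6.28 and -6.17 in SHRSP at 6 weeks against -5.42, -5.18 and -5.42 at 3 weeks. SHR had -6.66, -5.97 and -6.08 at 6 weeks against -5.14, -5.37 and -4.71 at 3 weeks, and WKY had -6.19, -6.04 and -6.66 against -5.25, -5.34 and -5.16. No 6-week array reached a 3-week array of its strain, while the strains overlapped at each age. Eln fell, with differences of -0.90 ± 0.20 in SHRSP, -1.16 ± 0.20 in SHR and -1.05 ± 0.20 in WKY (adjusted p = 0.00357, 0.000648 and 0.00337). Fibrillin 1 (Fbn1), the main microfibril protein of grown tissue, was at -1.55, -2.09 and -2.34 at 6 weeks against -1.06, -0.78 and -0.94 at 3 weeks in SHRSP. SHR had -2.51, -2.52 and -2.0 at 6 weeks against -1.09, -0.88 and -0.59 at 3 weeks, and WKY had -1.74, -2.30 and -2.47 against -1.01, -1.18 and -1.19. Here too the ages were apart in each strain, with differences of -1.07 ± 0.22 in SHRSP, -1.49 ± 0.22 in SHR and -1.05 ± 0.22 in WKY (adjusted p = 0.00244, 0.000246 and 0.00726).

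Mfap2, a microfibril glycoprotein, was the elastic fibre member that fell with age and was also higher in both hypertensive strains. Its levels were -3.19, -3.46 and -3.68 in SHRSP, -3.78, -3.90 and -3.42 in SHR and -3.87, -4.48 and -4.42 in WKY at 6 weeks. Its levels at 3 weeks were -2.48, -2.32 and -2.44 in SHRSP, -2.58, -2.38 and -2.28 in SHR and -2.92, -3.08 and -3.0 in WKY. SHRSP was above WKY on every array at both ages, and SHR at 3 weeks, while SHR and WKY overlapped at 6 weeks. Mfap2 was higher by 0.81 ± 0.17 in SHRSP and 0.56 ± 0.17 in SHR at 6 weeks (adjusted p = 0.00266 and 0.0222), and by 0.59 ± 0.17 and 0.59 ± 0.17 at 3 weeks (adjusted p = 0.0182 and 0.0248). These are small differences: in SHR at 6 weeks it was a call lost without WKY 6-week replicates 2 or 3 or SHR 6-week replicate 3 alone (adjusted p up to 0.106, without SHR 6-week replicate 3, with a difference of 0.42). In SHRSP at 3 weeks it was a call lost without WKY 3-week replicate 2 or SHRSP 3-week replicate 2 alone (adjusted p up to 0.0651, without SHRSP 3-week replicate 2, with a difference of 0.54). In SHR at 3 weeks it was a call lost without WKY 3-week replicates 2 or 3 or SHR 3-week replicates 2 or 3 alone (adjusted p up to 0.0968, without SHR 3-week replicate 3, with a difference of 0.52). The age difference was -1.03 in SHRSP, -1.29 in SHR and -1.26 in WKY, each with an SE of 0.17 (adjusted p = 0.000429, 8.82e-05 and 0.000296).

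The collagen- and elastin-associated glycoprotein Mfap4 had levels of -2.99, -3.23 and -3.93 at 6 weeks against -2.39, -2.27 and -2.29 at 3 weeks in SHRSP. SHR had -3.60, -3.90 and -3.35 at 6 weeks against -2.45, -2.45 and -2.11 at 3 weeks, and WKY had -3.38, -3.88 and -4.05 against -2.36, -2.57 and -2.55. The ages did not overlap in any strain, and the falls were -1.07 ± 0.22 in SHRSP, -1.28 ± 0.22 in SHR and -1.28 ± 0.22 in WKY (adjusted p = 0.00239, 0.000769 and 0.00196). Mfap5, which binds fibrillins, was at 0.51, 0.29 and 0.15 at 6 weeks against 1.53, 2.29 and 2.11 at 3 weeks in SHRSP. SHR had -0.27, -0.06 and 1.0 at 6 weeks against 1.34, 1.74 and 2.45 at 3 weeks, and WKY had 0.93, 0.71 and -0.07 against 1.60, 1.59 and 1.82. Its 3-week arrays were all higher, with spreads of over 1 unit among the arrays of SHR at either age. It fell, with differences of -1.66 ± 0.35 and -1.62 ± 0.35 in SHRSP and SHR (adjusted p = 0.00268 and 0.00344) and in WKY by a difference of -1.15 ± 0.35 (adjusted p = 0.0464). The WKY fall was a call lost without any 1 of 12 of the 18 arrays (adjusted p up to 0.154, without WKY 6-week replicate 3, with a difference of -0.85), and it was lost with slide as a block (adjusted p = 0.0579). Among the other elastic fibre members, Fbln5 and Efemp1, fibulins of the assembling fibre, fell in SHRSP (-0.76 and -0.61) and SHR (-0.77 and -0.69). Fbln1 fell in SHR and WKY (-0.79 and -0.77, neither kept with slide as a block, with adjusted p = 0.0917 and 0.115). Ltbp1, which holds latent TGF-beta in the matrix, fell in SHRSP (-0.78), and Ltbp2 and Emilin1 in SHR (-0.77 and -0.27). Of these calls, that of Efemp1 in SHRSP was lost without SHRSP 3-week replicates 2 or 3 or SHRSP 6-week replicates 2 or 3 alone (adjusted p up to 0.0633, without SHRSP 3-week replicate 3). That of Emilin1 was lost without SHR 3-week replicates 1 or 2 or SHR 6-week replicates 2 or 3 alone (adjusted p up to 0.121, without SHR 6-week replicate 2), and that of Ltbp2 was lost without SHR 3-week replicate 3 (difference -0.64, adjusted p = 0.0553). The Fbln1 call was lost without SHR 3-week replicates 2 or 3 or SHR 6-week replicates 2 or 3 alone (adjusted p up to 0.0965, without SHR 6-week replicate 2) in SHR. In WKY it was lost without any 1 of 12 of the 18 arrays (adjusted p up to 0.166, without WKY 6-week replicate 3). Efemp2, a fibulin needed for elastic fibre assembly, was called in no age comparison and was higher than in WKY at 6 weeks by 0.49 ± 0.12 in SHRSP and 0.35 ± 0.12 in SHR (adjusted p = 0.00894 and 0.0419). The Efemp2 call in SHRSP was lost without SHRSP 6-week replicate 1 (difference 0.39, adjusted p = 0.0501), and that in SHR was lost without any 1 of 12 of the 18 arrays (adjusted p up to 0.162, without SHR 6-week replicate 1). Fbln2 passed the test in none of the 9 pairwise comparisons.

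**Figure D4:**
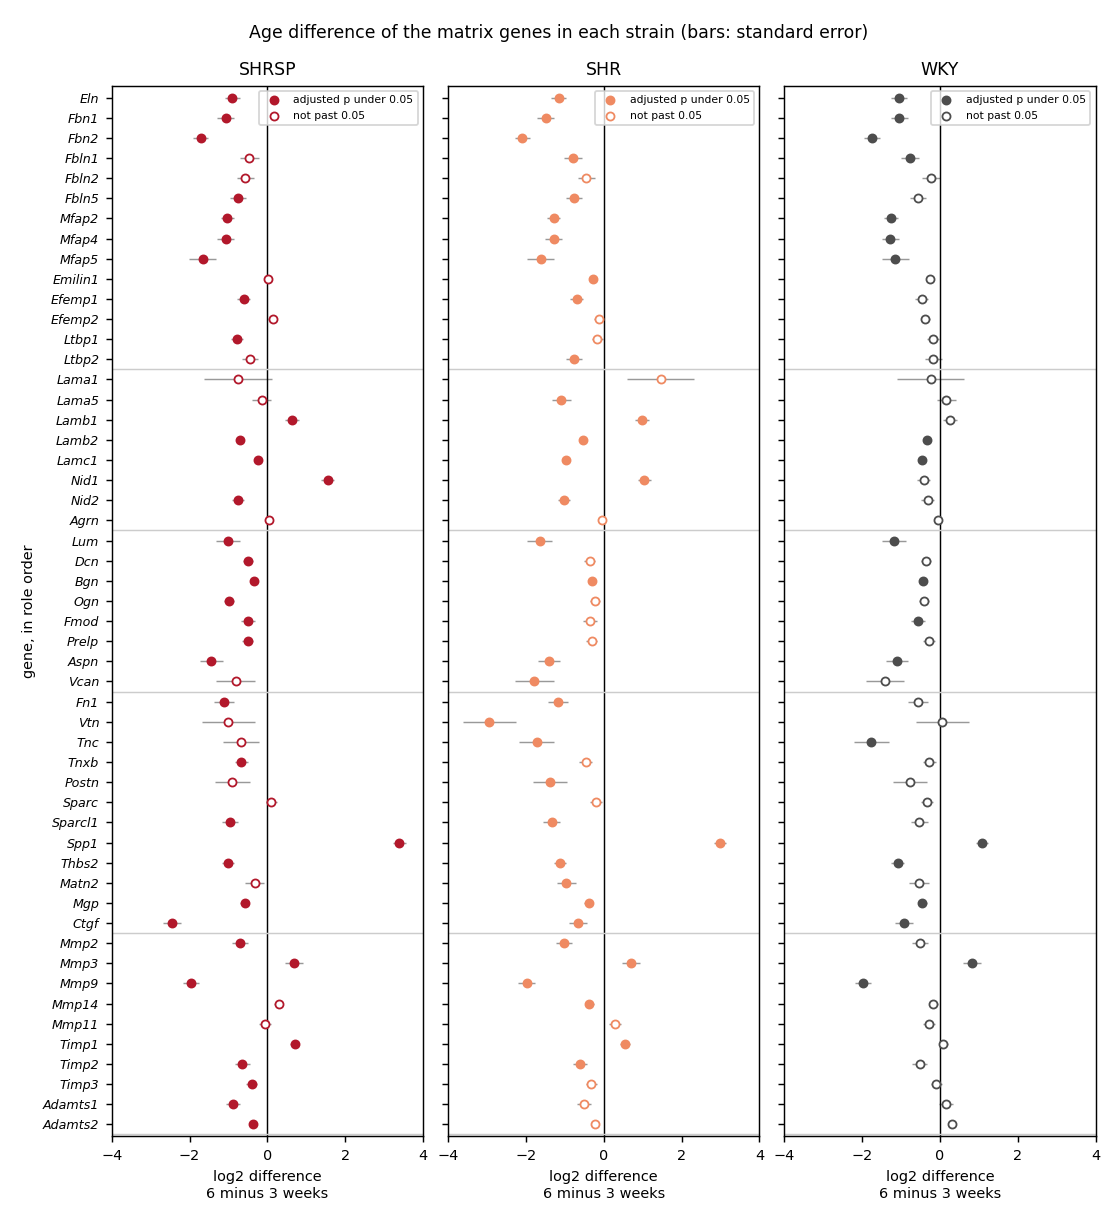
Log2 difference of 6 over 3 weeks for each tested matrix gene (rows, grouped by role) in SHRSP, SHR and WKY, with standard errors as bars and filled points where the adjusted p is under 0.05. In SHRSP 31 fell and 5 rose, in SHR 32 and 5, and in WKY 18 and 2. Spp1 lies farthest to the right in each strain.

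Basement membrane genes did not move as 1 group. Of the 8 tested, 3 fell and 2 rose with age in SHRSP, 4 fell and 2 rose in SHR, and 2 fell and 0 rose in WKY. Of all genes, 18.4% fell and 10.5% rose in SHRSP, 14.1% and 15.1% in SHR, and 7.16% and 5.16% in WKY. Against WKY 3 were higher in SHRSP and 3 in SHR at 6 weeks, beside 11.1% and 16.2% of all genes. At 3 weeks 3 and 2 were higher, beside 14.8% and 9.01%, and the 1 that was lower was Lamc1 in SHR at 6 weeks. The largest of these differences from WKY at 6 weeks were those of Nid1, which bridges laminin and collagen IV. Nid1 had levels of 1.46, 1.03 and 1.13 in SHRSP, 0.83, 0.15 and 0.63 in SHR and -1.48, -1.70 and -1.84 in WKY at 6 weeks. Levels at 3 weeks were -0.55, -0.39 and -0.09 in SHRSP, -0.66, -0.41 and -0.45 in SHR and -1.19, -1.33 and -1.24 in WKY. Both hypertensive strains lay above WKY at each age without overlap, and SHRSP above SHR at 6 weeks. The difference from WKY at 6 weeks was 2.88 ± 0.17 in SHRSP and 2.21 ± 0.17 in SHR (adjusted p = 6.07e-08 and 6.84e-07), or 7.36 and 4.62 times higher. At 3 weeks it was 0.91 ± 0.17 and 0.75 ± 0.17 (adjusted p = 0.00127 and 0.00685).

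The widening of this gap was tested directly. Nid1 rose with age by 1.55 ± 0.17 in SHRSP and 1.04 ± 0.17 in SHR (adjusted p = 1.56e-05 and 0.000515), while in WKY the difference was -0.42 ± 0.17 (adjusted p = 0.133). The age change in SHRSP exceeded that in WKY (1.97 ± 0.24, adjusted p = 0.000282) and that in SHR exceeded it (1.46 ± 0.24, adjusted p = 0.00409). SHRSP over SHR at 6 weeks was 0.67 ± 0.17 (adjusted p = 0.0156), a call lost without SHR 6-week replicate 2 or SHRSP 6-week replicate 1 alone (adjusted p up to 0.0772, without SHRSP 6-week replicate 1, with a difference of 0.55). The 6-week difference of SHRSP from WKY was 2.90 with slide as a block (adjusted p = 8.61e-06) and 2.83 within the 1 slide that held both groups. That of SHR was 2.22 with slide as a block (adjusted p = 3.43e-05) and 2.09 within the 1 slide that held both groups. The Nid1 result rests on 1 probe, which the array's annotation places at chromosome 17, 66858545 to 66859398, minus strand, in build rn4. The Nid1 promoter printed above lies on the plus strand in GRCr8. Of 35 members with both a probe strand and a promoter, 34 had them on the same strand and Nid1 alone did not, and whether the probe reads the Nid1 transcript or its opposite strand was not tested. Its place in an exon or untranslated region is not given in the sources used here.

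Lama5, the alpha chain of laminins of mature basement membranes, showed the largest 3-week difference of the group. Levels were -0.21, -0.16 and -0.76 in SHRSP, -0.57, -0.95 and -0.77 in SHR and -2.42, -2.07 and -1.49 in WKY at 6 weeks. Levels at 3 weeks were -0.49, -0.28 and 0.08 in SHRSP, -0.03, 0.47 and 0.55 in SHR and -2.26, -2.14 and -2.06 in WKY. Each array of the hypertensive strains was above each WKY array of its age. Lama5 was higher than in WKY by 1.62 ± 0.24 in SHRSP and 1.23 ± 0.24 in SHR at 6 weeks (adjusted p = 0.000177 and 0.00143), and by 1.92 ± 0.24 and 2.48 ± 0.24 at 3 weeks (adjusted p = 5.08e-05 and 8.66e-06). At 3 weeks the SHR difference was 2.48 with slide as a block (adjusted p = 2.55e-06) and between 2.23 and 2.61 within the 3 slides that held both groups. In SHR it fell with age (-1.09 ± 0.24, adjusted p = 0.00349), and this change was below that of WKY (-1.25 ± 0.33, adjusted p = 0.0431), a call lost without any 1 of 12 of the 18 arrays (adjusted p up to 0.105, without SHR 3-week replicate 2, with a difference of -1.18). The Lama5 probe lies at chromosome 3, 169234188 to 169234247, minus strand, in rn4. The Nid1 and Lama5 probes carry Ensembl transcript names that the RefSeq table does not list, so both gene names are those of the array's design.

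Lamb1, the beta chain of the most widespread laminins, had levels of 3.24, 2.96 and 2.75 in SHRSP, 3.16, 2.63 and 2.91 in SHR and 1.97, 1.48 and 1.65 in WKY at 6 weeks. Its 3-week levels were 2.08, 2.28 and 2.65 in SHRSP, 1.77, 1.82 and 2.14 in SHR and 1.47, 1.43 and 1.42 in WKY. The hypertensive strains were above WKY on all arrays of each age, by 1.28 ± 0.18 in SHRSP and 1.20 ± 0.18 in SHR at 6 weeks (adjusted p = 0.000134 and 0.000234) and by 0.90 ± 0.18 in SHRSP at 3 weeks (adjusted p = 0.00209). The SHR difference at 3 weeks, 0.47 ± 0.18, did not pass (adjusted p = 0.0924). Lamb1 rose with age in SHRSP (0.64 ± 0.18, adjusted p = 0.0156) and SHR (0.99 ± 0.18, adjusted p = 0.00116), in SHRSP a call lost without SHRSP 3-week replicates 1 or 2 or SHRSP 6-week replicate 1 alone (adjusted p up to 0.0701, without SHRSP 6-week replicate 1, with a difference of 0.51).

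Lamb2, the other beta chain measured, fell instead: it was at -0.10, -0.25 and -0.41 at 6 weeks against 0.49, 0.43 and 0.48 at 3 weeks in SHRSP. SHR had -0.04, -0.26 and -0.14 at 6 weeks against 0.36, 0.45 and 0.31 at 3 weeks, and WKY had 0.05, -0.06 and -0.04 against 0.34, 0.28 and 0.36. The ages were apart in each strain, with differences of -0.71 ± 0.08 in SHRSP, -0.52 ± 0.08 in SHR and -0.34 ± 0.08 in WKY (adjusted p = 2.54e-05, 0.000404 and 0.0151). In WKY this was a call lost without WKY 3-week replicates 1 or 3 alone (adjusted p up to 0.062, without WKY 3-week replicate 3, with a difference of -0.33). The gamma chain Lamc1 stood at 1.69, 1.61 and 1.66 at 6 weeks against 1.93, 1.99 and 1.77 at 3 weeks in SHRSP. SHR had 1.26, 1.21 and 1.33 at 6 weeks against 2.26, 2.14 and 2.34 at 3 weeks, and WKY had 1.60, 1.65 and 1.65 against 2.16, 2.02 and 2.10. It fell most in SHR (-0.98 ± 0.08, adjusted p = 9.78e-07), where at 6 weeks it lay below WKY (-0.37 ± 0.08, adjusted p = 0.00227) and SHRSP lay above SHR (0.38 ± 0.08, adjusted p = 0.00314). The falls in SHRSP (-0.25 ± 0.08, adjusted p = 0.0238) and WKY (-0.46 ± 0.08, adjusted p = 0.00137) were not seen on the other Lamc1 probe, which differed by 0.31 in SHRSP, 0.04 in WKY and -0.60 in SHR. At 3 weeks SHRSP was below SHR (-0.35 ± 0.08, adjusted p = 0.0109), a call lost without SHRSP 3-week replicate 3 (difference -0.28, adjusted p = 0.0545). In SHRSP the age call was also a call lost without SHRSP 3-week replicates 1 or 2 or SHRSP 6-week replicates 2 or 3 alone (adjusted p up to 0.107, without SHRSP 3-week replicate 2, with a difference of -0.20), and it was lost with slide as a block (adjusted p = 0.0674). The age change of Lamc1 in SHRSP exceeded that in SHR by 0.73 ± 0.11 (adjusted p = 0.000498), and the change in SHR was below that in WKY (-0.52 ± 0.11, adjusted p = 0.0134). Nid2, the second nidogen, fell in SHRSP (-0.76) and SHR (-1.02).

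Agrn, a heparan sulfate proteoglycan of basement membranes, and Lama1, the laminin alpha chain of embryonic membranes, were called in no pairwise comparison. Lama1 was near background: its levels at 6 weeks were -7.21, -7.87 and -7.84 in SHRSP, -7.22, -2.89 and -7.84 in SHR and -7.95, -7.11 and -7.38 in WKY. Replicate 2 of SHR alone was high there, and the difference of 1.50 ± 0.87 from WKY did not pass (adjusted p = 0.219).

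Proteoglycans fell with age and hardly differed between strains. Of the 8, 7 fell in SHRSP, 4 in SHR and 4 in WKY, beside 18.4%, 14.1% and 7.16% of all genes, and none rose. In the 6 comparisons between strains 1 was called, Prelp in SHRSP over WKY at 3 weeks (0.62 ± 0.15, adjusted p = 0.00581). Lumican (Lum), which sets the spacing of collagen fibrils, had levels of -3.47, -3.81 and -4.39 at 6 weeks against -2.87, -2.74 and -3.01 at 3 weeks in SHRSP. SHR had -4.47, -4.61 and -3.79 at 6 weeks against -3.01, -2.70 and -2.23 at 3 weeks, and WKY had -3.07, -4.09 and -4.29 against -2.52, -2.64 and -2.75. All 3-week arrays were above the 6-week arrays of their strain, and the differences were -1.02 ± 0.31 in SHRSP, -1.65 ± 0.31 in SHR and -1.18 ± 0.31 in WKY (adjusted p = 0.0254, 0.00154 and 0.0245). Blocked by slide they were -0.90 in SHRSP, -1.45 in SHR and -1.09 in WKY, of which the SHRSP and WKY values did not pass (adjusted p = 0.1 and 0.0647). The SHRSP fall was a call lost without SHRSP 3-week replicates 1 or 2 or SHRSP 6-week replicates 2 or 3 alone (adjusted p up to 0.11, without SHRSP 6-week replicate 3, with a difference of -0.76). The WKY fall was a call lost without WKY 3-week replicates 1, 2 or 3 or WKY 6-week replicates 2 or 3 alone (adjusted p up to 0.0874, without WKY 6-week replicate 2, with a difference of -1.05).

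Asporin (Aspn), a relative of decorin that binds collagen and TGF-beta, stood at -4.21, -4.85 and -4.87 at 6 weeks against -3.44, -2.97 and -3.19 at 3 weeks in SHRSP. SHR had -4.81, -5.15 and -4.15 at 6 weeks against -3.74, -3.25 and -2.88 at 3 weeks, and WKY had -4.12, -4.62 and -5.0 against -3.37, -3.56 and -3.49. The ages were apart in every strain, with differences of -1.44 ± 0.29 in SHRSP, -1.41 ± 0.29 in SHR and -1.10 ± 0.29 in WKY (adjusted p = 0.00189, 0.00244 and 0.0224). The WKY fall was a call lost without WKY 3-week replicates 1, 2 or 3 or WKY 6-week replicates 2 or 3 alone (adjusted p up to 0.0808, without WKY 6-week replicate 3, with a difference of -0.89). It was also lost with slide as a block (adjusted p = 0.0653). Biglycan (Bgn), a collagen-binding proteoglycan that was high on all arrays, had 3.69, 3.54 and 3.25 at 6 weeks against 3.89, 3.77 and 3.85 at 3 weeks in SHRSP. SHR had 3.47, 3.54 and 3.47 at 6 weeks against 3.86, 3.73 and 3.78 at 3 weeks, and WKY had 3.21, 3.43 and 3.17 against 3.80, 3.65 and 3.69. Its falls were small, -0.35 ± 0.10 in SHRSP, -0.30 ± 0.10 in SHR and -0.44 ± 0.10 in WKY (adjusted p = 0.0199, 0.0416 and 0.0114), although no array overlapped between ages. This was in SHRSP a call lost without SHRSP 3-week replicates 1 or 3 or SHRSP 6-week replicate 3 alone (adjusted p up to 0.0916, without SHRSP 6-week replicate 3, with a difference of -0.23). In SHR it was a call lost without any 1 of 11 of the 18 arrays (adjusted p up to 0.114, without SHR 3-week replicate 1, with a difference of -0.26), and in WKY a call lost without WKY 3-week replicate 1 (difference -0.40, adjusted p = 0.0541). Blocked by slide, Bgn passed in WKY, and not in SHRSP or SHR (adjusted p = 0.0608 and 0.146).

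Decorin (Dcn), which coats collagen fibrils and binds TGF-beta, fell in SHRSP only by the test, and the difference between strains in its age change was not called. Its levels were 2.20, 1.93 and 1.75 at 6 weeks against 2.40, 2.47 and 2.50 at 3 weeks in SHRSP. SHR had 1.94, 1.81 and 2.14 at 6 weeks against 2.16, 2.41 and 2.41 at 3 weeks, and WKY had 2.06, 1.63 and 1.58 against 2.18, 2.16 and 2.02. Only in WKY did arrays of the ages overlap. The differences were -0.50 ± 0.14 in SHRSP, -0.36 ± 0.14 in SHR and -0.36 ± 0.14 in WKY (adjusted p = 0.0152, 0.063 and 0.108), in SHRSP a call lost without SHRSP 3-week replicate 3 or SHRSP 6-week replicate 3 alone (adjusted p up to 0.0703, without SHRSP 6-week replicate 3, with a difference of -0.39). Osteoglycin (Ogn) fell in SHRSP (-0.98 ± 0.13, adjusted p = 6.87e-05), with a mean of 0.70 ± 0.18 at 6 weeks against 1.68 ± 0.08 at 3 weeks (SD, n = 3 each), and this change was below that of SHR (-0.75 ± 0.18, adjusted p = 0.0149). Fmod fell in SHRSP and WKY (-0.50 and -0.57), Prelp in SHRSP (-0.51) and the large hyaluronan-binding Vcan in SHR (-1.78). The Fmod call in SHRSP was lost without any 1 of 14 of the 18 arrays (adjusted p up to 0.204, without SHRSP 6-week replicate 3). In WKY it was lost without any 1 of 14 of the 18 arrays (adjusted p up to 0.161, without WKY 6-week replicate 3), and neither was kept with slide as a block (adjusted p = 0.108 and 0.105). The Prelp call was lost without SHRSP 3-week replicate 2 or SHRSP 6-week replicate 3 alone (adjusted p up to 0.069, without SHRSP 3-week replicate 2), and the Vcan call lost without SHR 3-week replicate 3 or SHR 6-week replicate 1 alone (adjusted p up to 0.0634, without SHR 3-week replicate 3).

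Among the adhesive and matricellular glycoproteins, 6 of 12 fell with age in SHRSP, 9 in SHR and 4 in WKY, and the 1 that rose in each strain was Spp1. Of all genes, 18.4% fell and 10.5% rose in SHRSP, 14.1% and 15.1% in SHR, and 7.16% and 5.16% in WKY. Spp1 is a secreted phosphoprotein that binds integrins and CD44 and is made by bone cells, macrophages and many epithelia. It had levels of 5.81, 6.39 and 5.78 in SHRSP, 5.81, 5.54 and 5.53 in SHR and 2.83, 2.65 and 2.57 in WKY at 6 weeks. The 3-week levels were 2.46, 2.65 and 2.70 in SHRSP, 2.83, 2.58 and 2.51 in SHR and 1.60, 1.84 and 1.37 in WKY. At each age every array of the hypertensive strains was above every WKY array, and SHRSP and SHR overlapped. At 6 weeks Spp1 was 9.95 times higher than in WKY in SHRSP (3.31 ± 0.16, adjusted p = 1.4e-08) and 7.71 times higher in SHR (2.95 ± 0.16, adjusted p = 3.47e-08). At 3 weeks the differences were 1.0 ± 0.16 and 1.04 ± 0.16 (adjusted p = 0.000464 and 0.000535).

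Spp1 rose with age by 3.39 ± 0.16 in SHRSP, 2.99 ± 0.16 in SHR and 1.08 ± 0.16 in WKY (adjusted p = 1.38e-08, 3.94e-08 and 0.000764). The rise was larger than in WKY by 2.31 ± 0.23 in SHRSP and 1.91 ± 0.23 in SHR (adjusted p = 7.44e-05 and 0.00051), and SHRSP minus SHR in age change, 0.40 ± 0.23, did not pass (adjusted p = 0.267). The SHRSP difference from WKY at 6 weeks was 3.19 with slide as a block (adjusted p = 2.42e-06) and 3.14 within the 1 slide that held both groups. The SHR difference was 2.97 with slide as a block (adjusted p = 4.08e-06) and 2.89 within the 1 slide that held both groups. Of 6 macrophage markers none was higher or lower than in WKY at 6 weeks in either strain, and their summed signal was 3.11 to 3.92 in SHRSP, 2.25 to 3.59 in SHR and 2.51 to 3.63 in WKY. At 3 weeks this sum was 2.13 to 2.35 in SHRSP, 1.85 to 2.15 in SHR and 1.93 to 1.97 in WKY, below every 6-week array of the same strain. By lowest level Cd14 was the brightest of the 6 at 6 weeks. Its lowest level was 1.04 at 6 weeks against -0.33 at 3 weeks in SHRSP, 0.84 against -0.61 in SHR and 0.59 against -0.16 in WKY. The lowest levels of Cd163 and Mrc1 went the other way in each strain, -3.36 against -1.96 and -4.86 against -4.01 in SHRSP. With age 2 of the 6 markers rose and 2 fell in SHRSP, 1 rose and 1 fell in SHR, and 1 rose and 0 fell in WKY. Their part in the Spp1 result was not tested. The Spp1 probe, printed 10 times per array, lies at chromosome 14, 6422382 to 6422441, minus strand, in rn4.

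**Figure D5:**
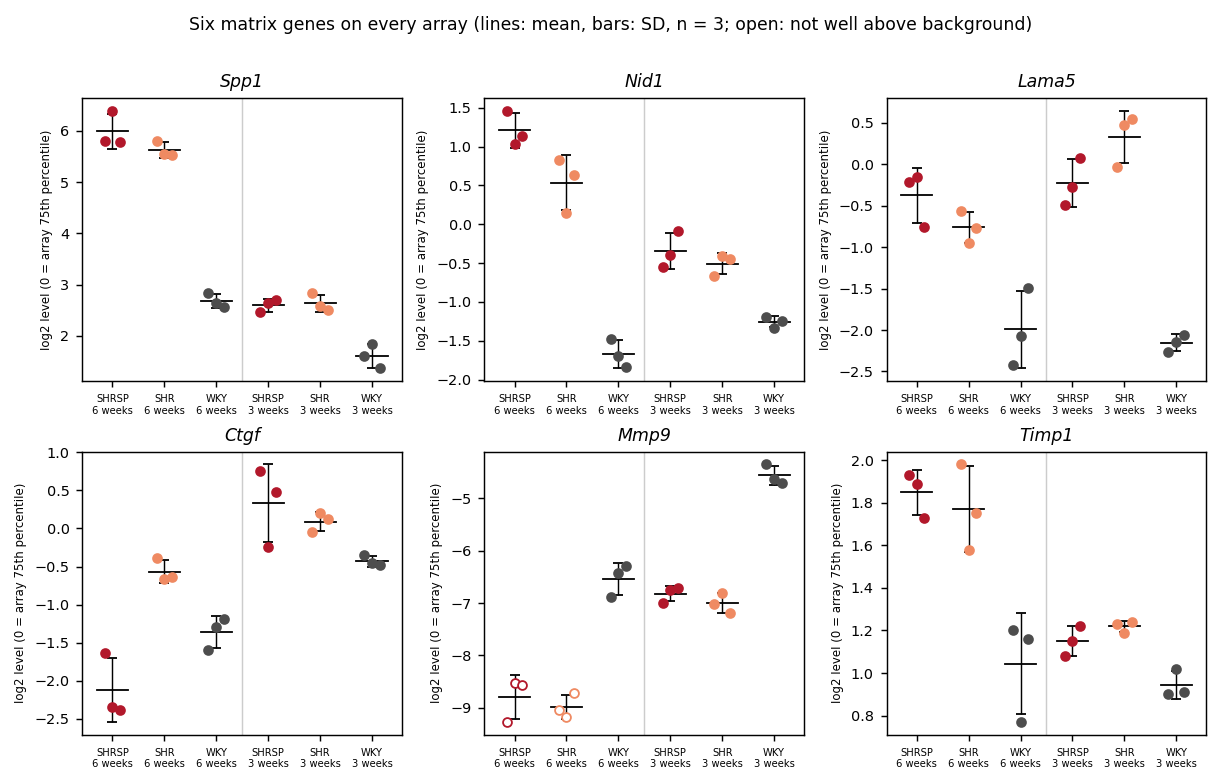
Log2 level of 6 matrix genes on each array (points), with the mean (line) and SD (bars) of 3 arrays per group, and open points where the probe was not well above background. Spp1, Nid1 and Timp1 are highest in SHRSP and SHR at 6 weeks, Ctgf is lowest in SHRSP at 6 weeks, and all 6 Mmp9 arrays of SHRSP and SHR at 6 weeks are open.

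Ctgf, a matricellular protein that TGF-beta and the Hippo pathway induce, parted the 2 hypertensive strains at 6 weeks. Its levels were -1.64, -2.34 and -2.39 in SHRSP, -0.39, -0.67 and -0.64 in SHR and -1.60, -1.29 and -1.19 in WKY at 6 weeks. Its 3-week levels were 0.75, -0.24 and 0.48 in SHRSP, -0.05, 0.20 and 0.12 in SHR and -0.35, -0.46 and -0.48 in WKY. At 6 weeks the 3 strains did not overlap, with SHR highest and SHRSP lowest. SHRSP was below SHR (-1.55 ± 0.23, adjusted p = 0.000425) and below WKY (-0.76 ± 0.23, adjusted p = 0.0254), while SHR was above WKY (0.79 ± 0.23, adjusted p = 0.0181). At 3 weeks SHRSP was above WKY (0.76 ± 0.23, adjusted p = 0.0247). The differences of both strains from WKY were calls that 1 array could end. At 6 weeks that of SHRSP was lost without WKY 6-week replicates 2 or 3 or SHRSP 6-week replicates 2 or 3 alone (adjusted p up to 0.1, without SHRSP 6-week replicate 3) and that of SHR lost without WKY 6-week replicate 1 or SHR 6-week replicate 1 alone (adjusted p up to 0.0747, without WKY 6-week replicate 1). That of SHRSP at 3 weeks was lost without WKY 3-week replicates 2 or 3 or SHRSP 3-week replicates 1 or 3 alone (adjusted p up to 0.11, without SHRSP 3-week replicate 1).

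The fall of Ctgf with age was -2.45 ± 0.23 in SHRSP, -0.66 ± 0.23 in SHR and -0.93 ± 0.23 in WKY (adjusted p = 3.67e-06, 0.0434 and 0.0166). The fall in SHRSP was larger than in WKY (-1.52 ± 0.32, adjusted p = 0.00949) and than in SHR (-1.79 ± 0.32, adjusted p = 0.00268). In SHR it was a call lost without any 1 of 9 of the 18 arrays (adjusted p up to 0.123, without SHR 3-week replicate 2, with a difference of -0.61), and it did not pass with slide as a block (adjusted p = 0.0901). In WKY it was a call lost without WKY 3-week replicate 1 or WKY 6-week replicate 1 alone (adjusted p up to 0.062, without WKY 6-week replicate 1, with a difference of -0.81). SHRSP over SHR at 6 weeks was -1.42 with slide as a block (adjusted p = 0.000742) and between -1.73 and -1.25 within the 2 slides that held both groups. The Ctgf probe lies at chromosome 1, 21327574 to 21327633, minus strand, in rn4.

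Thbs2, a thrombospondin that restrains vessel growth, had levels of -5.03, -5.27 and -5.58 at 6 weeks against -4.35, -4.20 and -4.31 at 3 weeks in SHRSP. SHR had -5.33, -5.58 and -5.25 at 6 weeks against -4.54, -4.27 and -3.97 at 3 weeks, and WKY had -5.04, -5.38 and -5.53 against -4.17, -4.23 and -4.27. The ages were apart everywhere, with differences of -1.01 ± 0.16 in SHRSP, -1.13 ± 0.16 in SHR and -1.09 ± 0.16 in WKY (adjusted p = 0.000427, 0.000205 and 0.000689). Mgp, the matrix Gla protein that keeps vessels from calcifying, was at 4.94, 4.67 and 4.44 at 6 weeks against 5.21, 5.21 and 5.40 at 3 weeks in SHRSP. SHR had 4.89, 4.62 and 4.86 at 6 weeks against 5.22, 5.15 and 5.19 at 3 weeks, and WKY had 4.78, 4.55 and 4.81 against 5.18, 5.18 and 5.15. It too was lower on every 6-week array, with differences of -0.59 ± 0.12 in SHRSP, -0.39 ± 0.12 in SHR and -0.45 ± 0.12 in WKY (adjusted p = 0.00181, 0.0215 and 0.0214). The call was lost in SHR with slide as a block (adjusted p = 0.156). The SHR fall was also a call lost without SHR 3-week replicates 1 or 3 or SHR 6-week replicate 2 alone (adjusted p up to 0.0951, without SHR 6-week replicate 2, with a difference of -0.31). The fall in WKY was a call lost without WKY 3-week replicates 1, 2 or 3 or WKY 6-week replicate 2 alone (adjusted p up to 0.0852, without WKY 6-week replicate 2, with a difference of -0.37).

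Fibronectin (Fn1), the adhesive protein on which other matrix is assembled, stood at -0.55, -0.75 and -0.75 at 6 weeks against 0.30, 0.64 and 0.38 at 3 weeks in SHRSP. SHR had -1.26, -0.85 and -0.31 at 6 weeks against -0.13, 0.66 and 0.58 at 3 weeks, and WKY had -0.44, -0.12 and -0.85 against 0.07, -0.10 and 0.30. The ages did not overlap in any strain, though in WKY the gap was narrow. Fn1 fell, with differences of -1.12 ± 0.25 in SHRSP and -1.17 ± 0.25 in SHR (adjusted p = 0.00402 and 0.00319), and the WKY difference was -0.56 ± 0.25 (adjusted p = 0.172). In SHRSP and SHR its highest 3-week level was on replicate 2, the array of each group where Alb was highest (0.83 and 5.47). The part of liver genes in these falls was not tested. Tenascin C (Tnc), which is made where tissue is remodelled, had -6.53, -7.41 and -6.62 at 6 weeks against -5.73, -6.22 and -6.57 at 3 weeks in SHRSP. SHR had -6.74, -7.27 and -8.40 at 6 weeks against -6.01, -5.93 and -5.30 at 3 weeks, and WKY had -6.99, -6.87 and -7.99 against -4.74, -6.01 and -5.82. Tnc was not well above background on replicate 3 of SHR and of WKY at 6 weeks. The ages overlapped in SHRSP. Tnc fell, with differences of -1.72 ± 0.45 in SHR and -1.76 ± 0.45 in WKY (adjusted p = 0.0113 and 0.0206), in SHR a call lost without SHR 6-week replicate 3 (difference -1.26, adjusted p = 0.0555). The WKY fall was a call lost without WKY 3-week replicate 1 or WKY 6-week replicate 3 alone (adjusted p up to 0.0978, without WKY 3-week replicate 1, with a difference of -1.37). Blocked by slide, the SHR value did not pass (adjusted p = 0.0541).

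Vitronectin (Vtn), an adhesive protein of plasma that the liver makes, was highest on the array where liver genes were highest. Its levels in SHR were -5.55, -4.49 and -4.06 at 6 weeks against -3.44, 0.32 and -2.16 at 3 weeks, with replicate 2 at 3 weeks far above the rest, on the array where Alb was at 5.47 and Ttr at 5.04. In SHRSP they were -4.19, -4.02 and -3.52 against -3.29, -2.43 and -2.98, highest on replicate 2 at 3 weeks, and in WKY -3.36, -3.66 and -4.15 against -4.06, -4.0 and -3.30. The fall in SHR was -2.94 ± 0.68 (adjusted p = 0.00545), and without SHR 3-week replicate 2 it was -1.90 (adjusted p = 0.0111). That fit still held SHR 3-week replicate 3, where liver genes were also high, with Alb at 0.50 and Ttr at -0.37. On replicate 1, where they were not, Vtn was at -3.44. Over the 7 liver and kidney markers tested, 2 fell and 2 rose with age in SHR, and their summed signal was 0.424 to 0.544 at 6 weeks against 4.1 to 85.7 at 3 weeks in SHR. In SHRSP this sum was 16.2 to 18.7 against 0.432 to 2.86, and in WKY 10 to 13.7 against 4.14 to 5.03. Most of the 6-week sums in SHRSP and WKY came from 1 marker, the antithrombin gene Serpinc1, with levels of 3.99, 4.15 and 4.18 at 6 weeks against -7.07, -3.63 and -8.35 at 3 weeks in SHRSP and 3.72, 3.27 and 3.62 against 2.08, 2.25 and 1.88 in WKY. In SHR Serpinc1 was at -5.28, -5.69 and -5.61 at 6 weeks against 1.93, 2.88 and 1.55 at 3 weeks. On SHR 3-week replicate 1, where the sum was 4.1, Serpinc1 was at 1.93 while Alb was at -3.09 and Ttr at -6.57. Alb at 6 weeks was at -2.90, -2.62 and -2.19 in SHRSP and -2.11, -2.63 and -3.44 in WKY. The part of these markers in the Vtn result was not tested.

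Sparc, a collagen-binding matricellular protein, was among the members high on every array, at 5.03, 5.21 and 4.66 in SHRSP, 4.86, 4.71 and 4.73 in SHR and 4.49, 4.25 and 4.52 in WKY at 6 weeks. The 3-week levels were 4.67, 4.79 and 5.13 in SHRSP, 4.76, 4.91 and 5.22 in SHR and 4.67, 4.78 and 4.77 in WKY. Its ages did overlap in SHRSP and SHR. It was called once, in SHRSP over WKY at 6 weeks (0.55 ± 0.15, adjusted p = 0.017), a call lost without WKY 6-week replicate 2 or SHRSP 6-week replicates 1 or 2 alone (adjusted p up to 0.0787, without SHRSP 6-week replicate 2, with a difference of 0.43). Its relative Sparcl1 fell in SHRSP (-0.97) and SHR (-1.34), periostin (Postn) and Matn2 fell in SHR (-1.39 and -0.96), and Tnxb fell in SHRSP (-0.67). The Postn call was lost without SHR 3-week replicates 2 or 3 or SHR 6-week replicates 1 or 2 alone (adjusted p up to 0.103, without SHR 3-week replicate 3). Tnxb was also higher than in WKY at 3 weeks by 0.47 ± 0.17 in SHRSP and 0.52 ± 0.17 in SHR (adjusted p = 0.0487 and 0.0436), and these did not pass with slide as a block (adjusted p = 0.0743 and 0.0537). They were also lost without any 1 of 12 of the 18 arrays (adjusted p up to 0.172, without SHRSP 3-week replicate 3) in SHRSP and lost without any 1 of 9 of the 18 arrays (adjusted p up to 0.196, without SHR 3-week replicate 3) in SHR.

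Proteases and inhibitors were the group with the most members lower than in WKY. Of 10, 5 were lower and 1 higher in SHRSP and 3 lower and 2 higher in SHR at 6 weeks, and 4 and 1 in SHRSP and 3 and 2 in SHR at 3 weeks. Of all genes, 12.8% were lower and 11.1% higher in SHRSP, and 13% and 16.2% in SHR, at 6 weeks. At 3 weeks these shares were 11.4% and 14.8% in SHRSP and 9.2% and 9.01% in SHR. The gelatinase Mmp9, made mostly by myeloid cells and remodelling tissue, was the lowest relative to WKY. Its levels were -9.27, -8.53 and -8.57 in SHRSP, -9.05, -9.17 and -8.72 in SHR and -6.89, -6.42 and -6.30 in WKY at 6 weeks. Its levels at 3 weeks were -6.99, -6.75 and -6.72 in SHRSP, -7.01, -6.80 and -7.19 in SHR and -4.35, -4.62 and -4.70 in WKY. WKY was above both strains on every array of each age, and no 6-week array of SHRSP or SHR was well above background, so differences with those groups are bounds. A bound sets the brighter group's mean against the higher of the array's lowest detected signal and the dim probe's own.

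At 6 weeks Mmp9 was at least 2.72-fold lower in SHRSP (adjusted p = 2.75e-06) and at least 1.89-fold lower in SHR (adjusted p = 1.57e-06) than in WKY. Beside each bound here, the adjusted p is that of the limma fit to the signals as read, and it does not measure the bound. At 3 weeks, where all arrays measured it, it was 4.78 times lower in SHRSP (-2.26 ± 0.21, adjusted p = 3.68e-06) and 5.42 times lower in SHR (-2.44 ± 0.21, adjusted p = 2.99e-06). With age it was at least 2.25-fold lower in SHRSP and at least 1.38-fold lower in SHR (adjusted p = 9.79e-06 and 1.37e-05), and fell in WKY with a difference of -1.98 ± 0.21 (adjusted p = 3.97e-05). The SHR difference at 3 weeks was -2.44 with slide as a block (adjusted p = 4.23e-05) and between -2.66 and -2.18 within the 3 slides that held both groups. Among macrophage markers, 2 of 6 were higher and none lower in SHRSP than in WKY at 3 weeks, and 0 of 6 were called in SHR. The Mmp9 probe lies at chromosome 3, 155992463 to 155992522, plus strand, in rn4.

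The membrane-bound collagenase Mmp14, which also activates Mmp2, had levels of 2.68, 2.85 and 2.86 in SHRSP, 2.69, 2.76 and 2.62 in SHR and 3.44, 3.39 and 3.39 in WKY at 6 weeks. Its levels at 3 weeks were 2.76, 2.49 and 2.27 in SHRSP, 3.25, 2.99 and 2.94 in SHR and 3.58, 3.53 and 3.63 in WKY. WKY was highest at both ages with no overlap, and at 3 weeks SHRSP was also below SHR on every array. Mmp14 was lower than in WKY, with differences of -0.62 ± 0.11 in SHRSP and -0.72 ± 0.11 in SHR at 6 weeks (adjusted p = 0.000995 and 0.00028) and of -1.07 ± 0.11 and -0.52 ± 0.11 at 3 weeks (adjusted p = 1.18e-05 and 0.00462). The 3-week SHRSP difference was -1.10 with slide as a block (adjusted p = 6.2e-05) and between -1.36 and -0.82 within the 2 slides that held both groups. SHRSP over SHR at 3 weeks was -0.55 ± 0.11 (adjusted p = 0.00698), and the age change in SHRSP exceeded that in SHR (0.66 ± 0.16, adjusted p = 0.0149). In SHR it fell with age (-0.37 ± 0.11, adjusted p = 0.0229), a call lost without SHR 3-week replicate 1 or SHR 6-week replicate 3 alone (adjusted p up to 0.0963, without SHR 3-week replicate 1, with a difference of -0.27). The gelatinase Mmp2 did not differ by the test between strains: it stood at -0.29, -0.49 and -0.82 at 6 weeks against -0.04, 0.25 and 0.28 at 3 weeks in SHRSP. SHR had -0.82, -0.92 and -0.36 at 6 weeks against -0.03, 0.27 and 0.71 at 3 weeks, and WKY had 0.05, -0.25 and -0.60 against 0.17, 0.27 and 0.29. It fell, with differences of -0.70 ± 0.21 in SHRSP and -1.02 ± 0.21 in SHR (adjusted p = 0.0225 and 0.00269), and the SHRSP call was lost with slide as a block (adjusted p = 0.072) and lost without SHRSP 3-week replicates 2 or 3 or SHRSP 6-week replicate 3 alone (adjusted p up to 0.094, without SHRSP 6-week replicate 3).

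Mmp11, a stromal protease, had -3.41, -3.66 and -4.07 in SHRSP, -3.78, -4.09 and -4.37 in SHR and -3.09, -3.05 and -3.14 in WKY at 3 weeks, and was lower there than in WKY, with differences of -0.62 ± 0.16 and -0.99 ± 0.16 (adjusted p = 0.0114 and 0.000749). WKY was above both on every array, and the SHRSP difference was a call lost without SHRSP 3-week replicate 3 (difference -0.45, adjusted p = 0.0648). At 6 weeks it stood at -4.01, -3.64 and -3.68 in SHRSP, -3.66, -3.80 and -3.92 in SHR and -3.38, -3.38 and -3.34 in WKY, again with WKY highest on every array, but neither difference from WKY passed. Stromelysin Mmp3 was dim, with -6.94, -6.73 and -6.98 in SHRSP, -5.81, -6.21 and -6.12 in SHR and -5.75, -6.59 and -5.90 in WKY at 6 weeks. Levels at 3 weeks were -7.56, -7.69 and -7.46 in SHRSP, -6.32, -6.92 and -7.0 in SHR and -7.13, -6.48 and -7.10 in WKY, where 3 arrays, 2 of SHRSP and 1 of WKY, were not well above background. SHRSP was below the other strains on every array at both ages, and the ages overlapped in WKY alone. Mmp3 was lower in SHRSP than in SHR, with differences of -0.83 ± 0.23 at 6 weeks and -0.82 ± 0.23 at 3 weeks (adjusted p = 0.0258 and 0.0438), and than in WKY, with differences of -0.80 ± 0.23 and -0.67 ± 0.23 (adjusted p = 0.0208 and 0.0465). It rose with age by 0.69 ± 0.23, 0.70 ± 0.23 and 0.82 ± 0.23 in SHRSP, SHR and WKY (adjusted p = 0.0378, 0.0351 and 0.033).

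All these Mmp3 calls lay near the threshold. SHRSP over WKY was lost without WKY 6-week replicates 1 or 3 or SHRSP 6-week replicates 1 or 3 alone (adjusted p up to 0.0895, without WKY 6-week replicate 1) at 6 weeks. At 3 weeks this was lost without any 1 of 12 of the 18 arrays (adjusted p up to 0.215, without WKY 3-week replicate 2). SHRSP over SHR at 6 weeks was a call lost without SHR 6-week replicates 1 or 3 or SHRSP 6-week replicates 1 or 3 alone (adjusted p up to 0.0821, without SHR 6-week replicate 1, with a difference of -0.72). At 3 weeks it was a call lost without any 1 of 12 of the 18 arrays (adjusted p up to 0.164, without SHR 3-week replicate 1, with a difference of -0.61). With normexp background correction and quantile normalization the 3-week value of SHRSP over SHR was -0.17 (adjusted p = 0.409). With slide as a block the 3-week differences of SHRSP from SHR and from WKY did not pass (adjusted p = 0.0529 and 0.0579). The age rise in SHRSP was a call lost without any 1 of 6 of the 18 arrays (adjusted p up to 0.119, without SHRSP 6-week replicate 2, with a difference of 0.61). In SHR it was a call lost without SHR 3-week replicates 2 or 3 or SHR 6-week replicates 1 or 3 alone (adjusted p up to 0.122, without SHR 3-week replicate 3, with a difference of 0.58), and in WKY a call lost without WKY 3-week replicates 1 or 3 or WKY 6-week replicates 1 or 3 alone (adjusted p up to 0.125, without WKY 3-week replicate 1, with a difference of 0.71).

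Timp1, an inhibitor of most metalloproteases, rose with age in the hypertensive strains. It had 1.93, 1.89 and 1.73 in SHRSP, 1.98, 1.58 and 1.75 in SHR and 1.20, 0.77 and 1.16 in WKY at 6 weeks. Its 3-week levels were 1.08, 1.15 and 1.22 in SHRSP, 1.23, 1.19 and 1.24 in SHR and 0.90, 1.02 and 0.91 in WKY. All 6 arrays of the hypertensive strains at 6 weeks were above every other array. Timp1 was higher than in WKY at 6 weeks by 0.81 ± 0.12 in SHRSP and 0.73 ± 0.12 in SHR (adjusted p = 0.00017 and 0.000383), and rose with age by 0.70 ± 0.12 and 0.55 ± 0.12 in these strains (adjusted p = 0.000519 and 0.0032). The 6-week difference in SHRSP was 0.82 with slide as a block (adjusted p = 8.35e-05) and 0.97 within the 1 slide that held both groups. The rise in SHRSP was larger than in WKY (0.61 ± 0.17, adjusted p = 0.0331), a call lost without any 1 of 8 of the 18 arrays (adjusted p up to 0.084, without WKY 3-week replicate 2, with a difference of 0.57). Timp3, the matrix-bound inhibitor, was higher than in WKY at 3 weeks by 0.46 ± 0.14 in SHRSP and 0.67 ± 0.14 in SHR (adjusted p = 0.024 and 0.00393) and at 6 weeks in SHR (0.45 ± 0.14, adjusted p = 0.0251). The SHRSP call was lost without WKY 3-week replicates 1 or 2 or SHRSP 3-week replicate 3 alone (adjusted p up to 0.125, without SHRSP 3-week replicate 3). The 6-week SHR call was lost without WKY 6-week replicates 1 or 2 or SHR 6-week replicate 3 alone (adjusted p up to 0.108, without SHR 6-week replicate 3). Timp3 also fell with age in SHRSP (-0.40 ± 0.14, adjusted p = 0.0435), a call lost without any 1 of 9 of the 18 arrays (adjusted p up to 0.199, without SHRSP 3-week replicate 3, with a difference of -0.27), and it did not pass with slide as a block (adjusted p = 0.0901). Timp2 fell with age in SHRSP (-0.65) and SHR (-0.61). The Timp2 calls were lost without SHRSP 3-week replicates 2 or 3 or SHRSP 6-week replicate 3 alone (adjusted p up to 0.0847, without SHRSP 6-week replicate 3) in SHRSP and lost without SHR 3-week replicates 2 or 3 or SHR 6-week replicate 2 alone (adjusted p up to 0.124, without SHR 3-week replicate 3) in SHR. Blocked by slide, the SHR value did not pass (adjusted p = 0.124).

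The proteoglycan-cutting Adamts1 had levels of -0.89, -1.52 and -1.38 in SHRSP, -0.58, -0.84 and -0.47 in SHR and -0.67, -0.72 and -0.43 in WKY at 6 weeks. The 3-week levels were -0.09, -0.65 and -0.40 in SHRSP, -0.41, -0.15 and 0.16 in SHR and -0.72, -0.79 and -0.78 in WKY. SHRSP was lowest at 6 weeks, below SHR and WKY on every array. The difference was -0.63 ± 0.18 from SHR and -0.65 ± 0.18 from WKY (adjusted p = 0.0326 and 0.0183), of which the first was a call lost without SHR 6-week replicates 1 or 3 or SHRSP 6-week replicates 2 or 3 alone (adjusted p up to 0.132, without SHRSP 6-week replicate 2, with a difference of -0.50). The difference from WKY was lost without WKY 6-week replicate 3 or SHRSP 6-week replicates 2 or 3 alone (adjusted p up to 0.0817, without SHRSP 6-week replicate 2), and with slide as a block it did not pass (adjusted p = 0.0578). At 3 weeks SHR was above WKY (0.63 ± 0.18, adjusted p = 0.0283), a call lost without WKY 3-week replicates 1, 2 or 3 or SHR 3-week replicates 2 or 3 alone (adjusted p up to 0.135, without SHR 3-week replicate 3, with a difference of 0.48). The fall with age in SHRSP, -0.89 ± 0.18 (adjusted p = 0.00255), was below the WKY change (-1.04 ± 0.26, adjusted p = 0.0221), a call lost without WKY 3-week replicate 2 or SHRSP 6-week replicates 2 or 3 alone (adjusted p up to 0.053, without WKY 3-week replicate 2, with a difference of -1.03). The procollagen N-proteinase Adamts2 stood at -0.95, -0.97 and -1.32 in SHRSP, -0.78, -0.88 and -0.69 in SHR and -0.23, -0.10 and -0.31 in WKY at 6 weeks. Its levels at 3 weeks were -0.70, -0.71 and -0.70 in SHRSP, -0.55, -0.63 and -0.48 in SHR and -0.46, -0.51 and -0.56 in WKY. At 6 weeks WKY was highest on every array, and the difference from it was -0.87 ± 0.10 in SHRSP and -0.57 ± 0.10 in SHR (adjusted p = 1.61e-05 and 0.000568). The age change was below that of WKY, with differences of -0.67 ± 0.14 in SHRSP and -0.53 ± 0.14 in SHR (adjusted p = 0.00716 and 0.0391). In SHR this was a call lost without any 1 of 12 of the 18 arrays (adjusted p up to 0.0908, without WKY 3-week replicate 3, with a difference of -0.50), and it did not pass with slide as a block (adjusted p = 0.0566).

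Other matrix genes were followed in 4 lists of 135 genes, of which 108 were tested. Among receptors of the matrix, 2 of 23 were higher and 6 lower in SHRSP than in WKY at 6 weeks, and 2 and 4 in SHR. These counts, and those of the other 3 lists below, stand beside 11.1% of all genes higher and 12.8% lower in SHRSP, and 16.2% and 13% in SHR. The integrin alpha chains Itga9, which binds tenascin and osteopontin, and Itga11, which binds collagen, were lower in SHRSP, with differences of -1.17 ± 0.15 and -1.16 ± 0.18 (adjusted p = 5.93e-05 and 0.000289). The heparan sulfate receptor Sdc3 was higher (0.54 ± 0.11, adjusted p = 0.00215) and the collagen receptor Ddr2 was higher at 3 weeks (0.86 ± 0.21, adjusted p = 0.00673). With age, Itga2, a collagen receptor chain, fell in SHRSP (-2.02 ± 0.22, adjusted p = 1.66e-05) and Itga5, the fibronectin receptor chain, in SHR (-1.12 ± 0.15, adjusted p = 0.000113). The collagen receptor Ddr1 rose in SHRSP (1.37 ± 0.19, adjusted p = 0.000136) and Sdc3 in SHR (0.64 ± 0.11, adjusted p = 0.000713).

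Of 24 genes of cross-linking, maturation and TGF-beta, 7 were higher and 2 lower in SHRSP than in WKY at 6 weeks, and 11 and 2 in SHR. The ligand Tgfb2 was higher in SHRSP at 3 weeks (1.72 ± 0.16, adjusted p = 3.33e-06) and the collagen prolyl hydroxylase Leprel1 in SHR at 3 weeks (1.42 ± 0.12, adjusted p = 2.51e-06). The lysyl oxidase relative Loxl4 was lower in SHRSP at 6 weeks (-2.13 ± 0.14, adjusted p = 1.7e-07) and the TGF-beta coreceptor Tgfbr3 at 3 weeks (-0.84 ± 0.14, adjusted p = 0.000527). With age, Pcolce, which speeds procollagen cleavage, rose in SHRSP (0.98 ± 0.11, adjusted p = 1.38e-05) and the cross-linking enzyme Lox in WKY (0.85 ± 0.13, adjusted p = 0.000935), while Ltbp4 and Loxl2 fell in SHR, with differences of -1.24 ± 0.15 and -0.88 ± 0.11 (adjusted p = 4.71e-05 and 6.62e-05).

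Of 30 other matrix proteins, 5 were higher and 2 lower in SHRSP than in WKY at 6 weeks, and 7 and 2 in SHR. Of these 30, 23.3% were called in SHRSP and 30% in SHR, near the shares of all genes. Comp, a thrombospondin of cartilage and vessel wall, was lower in SHRSP (-2.02 ± 0.14, adjusted p = 2.33e-07) and fell with age there (-2.66 ± 0.14, adjusted p = 2.53e-08). Tenascin R (Tnr) was higher in SHR at 6 weeks (2.53 ± 0.31, adjusted p = 4.02e-05) and serglycin (Srgn) in SHRSP at 3 weeks (0.91 ± 0.11, adjusted p = 5.85e-05). The glypican Gpc1 was lower in SHRSP at 3 weeks (-0.99 ± 0.12, adjusted p = 3.62e-05) and rose with age there (1.22 ± 0.12, adjusted p = 4.89e-06), as did Smoc1 (1.18 ± 0.17, adjusted p = 0.000197), and tenascin N (Tnn) fell in SHR (-3.46 ± 0.31, adjusted p = 4.22e-06).

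Of 31 other proteases and inhibitors, 8 were higher and 2 lower in SHRSP than in WKY at 6 weeks, and 7 and 3 in SHR. Tissue plasminogen activator (Plat) was higher in SHRSP at 3 weeks (2.77 ± 0.33, adjusted p = 3.62e-05) and the proteoglycan-cutting Adamts9 in SHR at 6 weeks (2.42 ± 0.16, adjusted p = 2.04e-07). The macrophage elastase Mmp12 was lower in SHRSP at 3 weeks (-1.30 ± 0.28, adjusted p = 0.0029). With age the inhibitor Timp4 fell in SHRSP (-2.12 ± 0.19, adjusted p = 2.27e-06) and Mmp7 in SHR (-0.80 ± 0.11, adjusted p = 0.000107), and Mmp19 rose in SHR (0.81 ± 0.11, adjusted p = 0.000154).

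Of the 9 members with a second probe, 18 differences were called on the brighter probe and 16 had the same sign on the other. Both exceptions were Lamc1 with age, in SHRSP and in WKY.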

How the data were processed

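Total RNA from whole adrenal glands of 3 rat strains at 2 ages was measured on 18 one-colour (Cy3) Agilent arrays, 3 per group. Per the file headers and the submitters' processing notes, the authors scanned and extracted the arrays with Agilent Feature Extraction 10.5.1.1, and the deposited values used here are processed intensity per spot, already background-subtracted. A deposited series table holds the same processed intensities, neither logged nor scaled. Its largest difference from the scanner files' processed signals was 0. The genome build of the probe positions is rn4, per the file headers.

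From these, log2 intensity minus the array's 75th percentile of it was averaged over spots of a probe, with outlier spots left out and, of 44254 spots, only the 42877 that were not controls used. A gene was tested where 1 group or more had it well above background on each of 3 arrays, leaving 20846, and the brightest probe stood for a gene. Differences were fitted with limma 3.58.1 in R 4.3.3 over the 6 groups (12 residual degrees of freedom) and p-values adjusted by Benjamini-Hochberg over all genes, with 0.05 as the threshold. The fit was tested on simulated data. Tables and figures were made with Python 3.11.15, pandas 2.3.3 and matplotlib 3.10.9. No spot was saturated, and the number of arrays limits the precision.

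Members and lists were chosen with earlier results of these data known. Values of every sample are given for the 3 largest rises and falls among called members with no overlap in each pairwise comparison, for members called alike in all comparisons with WKY or of age, for the 3 smallest adjusted p in each comparison of age changes, and for Fn1, Sparc, Dcn, Mmp2, Timp1, Spp1 and Ctgf. From each other list, the 2 smallest adjusted p in each direction against WKY and with age are named, except a gene that is not reported here. RefSeq listed the probe accession of 47 of the 54 genes. Alternatives were other scalings, filters, probe rules, blocks and each array or slide left out, the slides chosen after seeing the data.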

Additional observations from a re-analysis of the deposited data

Results flagged for a closer look

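For 10 of the matrix genes the change with age differed between strains by the test of that difference itself, limma's contrast of 2 age changes with p-values adjusted over all genes. These are 15 results in 3 contrasts, each with the standard error given in the text above.

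SHRSP minus WKY gave 6. Positive values, where the age change was more positive in SHRSP, were those of the osteopontin gene Spp1, 2.31, of the laminin-binding Nid1, 1.97, and of the protease inhibitor Timp1, 0.61. Negative values were those of the matricellular Ctgf, -1.52, and of the proteases Adamts1, -1.04, and Adamts2, -0.67. SHR minus WKY gave 5, with Spp1 at 1.91 and Nid1 at 1.46, and with the laminin chains Lama5 at -1.25 and Lamc1 at -0.52 and Adamts2 at -0.53. SHRSP minus SHR gave 4, with Lamc1 at 0.73 and the collagenase Mmp14 at 0.66, and with Ctgf at -1.79 and the proteoglycan Ogn at -0.75.

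Spp1 and Nid1 had age changes above those of WKY in both hypertensive strains in these contrasts, which share the WKY arrays, and Ctgf separated SHRSP from both other strains. Each group held 3 arrays, so no array was tested as an outlier within its group.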

How the results depend on the processing

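The 108 differences of named members that were followed gave 3659 values under the alternatives, of which 3367 kept their direction and their side of the threshold, 291 kept the direction without passing and 1 turned. That 1 was Lamc1, 6 over 3 weeks in SHRSP, at 0.03 (adjusted p = 0.824) with the mean of all probes of a gene, since the second probe differed in the other direction. The labels do not pair arrays by replicate number, and 13 of 45 same-numbered pairs had deviations correlated over 0.1 (range -0.526 to 0.583). This cannot exclude a pairing, since differently numbered pairs were not set beside it and replicate number went partly with slide. With the replicate block the counts of members called were 14 and 16 (SHR and SHRSP over WKY) and 5 (SHRSP over SHR) at 6 weeks, 11, 12 and 2 at 3 weeks, 35, 38 and 20 with age in SHRSP, SHR and WKY, and 5, 6 and 4 for the age changes of SHR minus WKY, SHRSP minus WKY and SHRSP minus SHR. It changed no count by over 1.5 times.

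Counts that moved by more are these, and beyond the smaller number of arrays or genes the cause was not tested. SHRSP over SHR at 3 weeks had 3 members called, 5 with slide as a random block, and by limma 0 from only the arrays of the groups compared (7 at an unadjusted p under 0.05) and 0 without slide 4 (8 at an unadjusted p under 0.05). With only the arrays compared, SHRSP over WKY at 6 weeks had 9, SHRSP over SHR at 6 weeks 2 and WKY with age 12. With slide as a random block SHR minus WKY in age change had 8 and SHRSP minus WKY 11, and without the filter on dim probes SHR minus WKY had 3.

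Leaving out a whole slide, an alternative chosen after seeing the data, removes 2 to 4 arrays. SHR over WKY at 3 weeks then had 4 without slide 2 and 6 without slide 4, SHRSP over WKY at 3 weeks 8 and 7 without the same slides, and SHRSP over SHR at 3 weeks 1 without slide 1 or slide 2. SHRSP over SHR at 6 weeks had 1 without slide 2 or 5 and 3 without slide 3 or 4. With age SHRSP had 20 without slide 3, SHR 22 without slide 2 and WKY 8 without slide 1 or 4. The age changes of SHR minus WKY had 2, 2, 3 and 1 without slides 1 to 4, SHRSP minus WKY had 2 without slide 4, and SHRSP minus SHR 2 without slide 3 or 5.

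Leaving out 1 array in turn gave 7 to 12 members for SHR over WKY, 9 to 15 for SHRSP over WKY and 1 to 3 for SHRSP over SHR at 3 weeks, and 12 to 15, 12 to 16 and 3 to 6 at 6 weeks. With age it gave 25 to 37 in SHRSP, 28 to 40 in SHR and 9 to 22 in WKY, and 3 to 5, 4 to 7 and 4 to 5 for the age changes in the order above.

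Precision is limited by 3 arrays per group. Mmp9 at 6 weeks in SHR and SHRSP was not well above background and is given as a bound. Sex and litter of the rats are not given in the sources used here, and the replicate arrays measure the spread between samples.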
